A study of Mus musculus with 24 samples.

Results

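The AP-1 genes described here are Fos, Fosb, Fosl1, Fosl2, Jun, Junb, Jund and Atf3, followed through 4 culture states of C2C12 cells, an established line of mouse myoblasts. They were taken by symbol from the array annotation, using probe sets assigned to 1 gene only. All 8 genes had such a probe set, 10 probe sets in all, among 12393 genes covered by 20380 probe sets. RNA came from 24 Affymetrix mouse arrays in 8 groups of 3. Every culture had received an siRNA, against IFT88, a transport protein needed to build the primary cilium (label IFT88KD), or a negative control siRNA (label control). Proliferating cells grew attached in DMEM with 20% FBS, and quiescent cells were held in suspension in that medium. Replated cells were quiescent cells taken 2 h after return to a surface in medium with 20% FBS, and differentiating cells had spent 48 h attached in DMEM with 2% horse serum. Knockdown was transient siRNA in 1 cell line, and nothing in the labels says that the 3 arrays of a group came from separate cultures, so p-values measure only the spread between these arrays.

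AP-1 is a family of transcription factors with a basic leucine zipper that bind DNA as pairs. Fos proteins do not pair with themselves and need a Jun protein or a related partner, whereas Jun proteins also pair among themselves. Fos, Fosb, Junb, Jun and Atf3 are immediate early genes, whose transcripts appear without new protein synthesis after serum, growth factors or stress and are short lived. Fosl1 and Fosl2 lack the strong activation domain of Fos and Fosb, Jund is expressed in most resting cells, and Atf3 is a stress-induced partner that often represses. In myoblasts, Jun is known to antagonise the myogenic factor MyoD.

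The stretch just upstream of the start is shown for Fos, Jun, Junb and Atf3. In control cells as deposited, Fos, Jun and Junb stood lower after replating, Junb with a difference of -0.51. Atf3 differed by -0.04. Sequences are from RefSeq on GRCm38.p6, 250 bases each, ending at the base before the annotated start and written in the direction of the gene. Capitals mark 3 kinds of match. One is TGACG on either strand, the core of the cAMP response element. Another is TGACATCA, the AP-1-like site known from the Jun promoter. The last is TATAAA, the core promoter element bound by the TATA-binding protein. The Fos stretch lies at chr12:85473640-85473889 on the plus strand, and the others lie on the minus strand, at chr4:95052223-95052472 for Jun, chr8:84978749-84978998 for Junb and chr1:191183334-191183583 for Atf3.
Fos: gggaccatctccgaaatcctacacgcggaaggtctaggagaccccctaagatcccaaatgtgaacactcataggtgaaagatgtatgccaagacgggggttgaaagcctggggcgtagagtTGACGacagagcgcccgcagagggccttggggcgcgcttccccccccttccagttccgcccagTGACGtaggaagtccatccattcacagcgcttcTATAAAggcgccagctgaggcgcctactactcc
Jun: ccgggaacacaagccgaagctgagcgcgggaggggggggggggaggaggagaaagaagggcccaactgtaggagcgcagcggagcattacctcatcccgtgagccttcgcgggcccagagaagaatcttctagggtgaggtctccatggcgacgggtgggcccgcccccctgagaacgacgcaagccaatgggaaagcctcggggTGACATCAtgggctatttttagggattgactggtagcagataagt
Junb: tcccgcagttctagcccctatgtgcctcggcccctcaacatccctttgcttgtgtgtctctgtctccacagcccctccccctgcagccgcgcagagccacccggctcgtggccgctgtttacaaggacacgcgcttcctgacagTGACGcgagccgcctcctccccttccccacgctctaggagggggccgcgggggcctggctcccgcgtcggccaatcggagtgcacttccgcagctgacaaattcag
Atf3: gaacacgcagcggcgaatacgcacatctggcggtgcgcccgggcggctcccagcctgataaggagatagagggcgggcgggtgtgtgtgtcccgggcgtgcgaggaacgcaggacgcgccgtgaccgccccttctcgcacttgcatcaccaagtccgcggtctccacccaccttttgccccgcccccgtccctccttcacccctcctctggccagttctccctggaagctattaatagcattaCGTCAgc

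In Fos the TGACG matches began 129 and 66 bases before the start and TATAAA 33 bases before it. The Jun match began 45 bases before the start, the Junb match 106 bases, and Atf3 held the letters on the opposite strand 7 bases before the start. Of the 7 genes with an entry in the promoter table, 4 held TGACG (Fos, Fosb, Junb and Atf3), against 17.8% of 32851 promoters of the same length. TGACATCA was in Jun alone, against 2.93% of promoters, and TATAAA in Fos alone, against 12.4%. The full element TGACGTCA (1.55% of promoters), the AP-1 site TGANTCA (6.75%) and the CArG box of serum response factor (1.47%) had no match in any of the 7, which says only that these letters are not in these windows. Both strands were searched, and every TGACGTCA match also holds TGACG.

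The values are log2 levels as deposited, and arrays of different states were on different scales: array medians lay at 2.92 to 2.98 for replated cells, against 3.58 to 3.62 (proliferating), 3.79 to 3.85 (quiescent) and 3.68 to 3.78 (differentiating) for the others. The median change of all 8597 genes tested is therefore given beside each change between states. Arrays of a group correlated at 0.991 or more. Ift88 itself averaged 4.31 ± 0.12 (SD, n = 3) in control and 3.63 ± 0.24 in IFT88KD quiescent cells, a difference of -0.69 (SE 0.16, limma adjusted p = 0.0113). The difference in Ift88 was -0.52 in proliferating (adjusted p = 0.295, 0.0429 with replicate numbers as blocks), -0.59 in replated (0.0535, 0.00802 with blocks) and -0.01 in differentiating cells (0.999). Of 12 skeletal muscle markers, 11 were above the 40th percentile on all arrays of every group, and the exception was Myf6.

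All 8 genes stood higher in suspension-held quiescent cells than in proliferating cells, with either siRNA. The differences were largest in Fos, Fosb and Atf3, the founding Fos gene, its close relative and the stress-induced partner, and smallest in Fosl2. Per array, Fos read 6.52, 6.31 and 3.47 in control proliferating cells and 9.35, 10.23 and 10.19 in control quiescent cells. With IFT88 siRNA it read 4.90, 5.08 and 3.30, then 9.58, 10.31 and 10.01. Every quiescent array lay above every proliferating one, and the arrays numbered 3 were the low ones among proliferating cells. Fos changed by 4.49 in control cells and by 5.54 in IFT88KD cells. These changes are given as a description without a test. The fall of Fos from its quiescent level was known when the genes were chosen. Without the proliferating arrays numbered 3, a setting chosen after seeing the data, these changes were 3.51 and 4.98. In control cells 0.651% of the genes tested had a larger positive change than Fos.

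**Figure D1:**
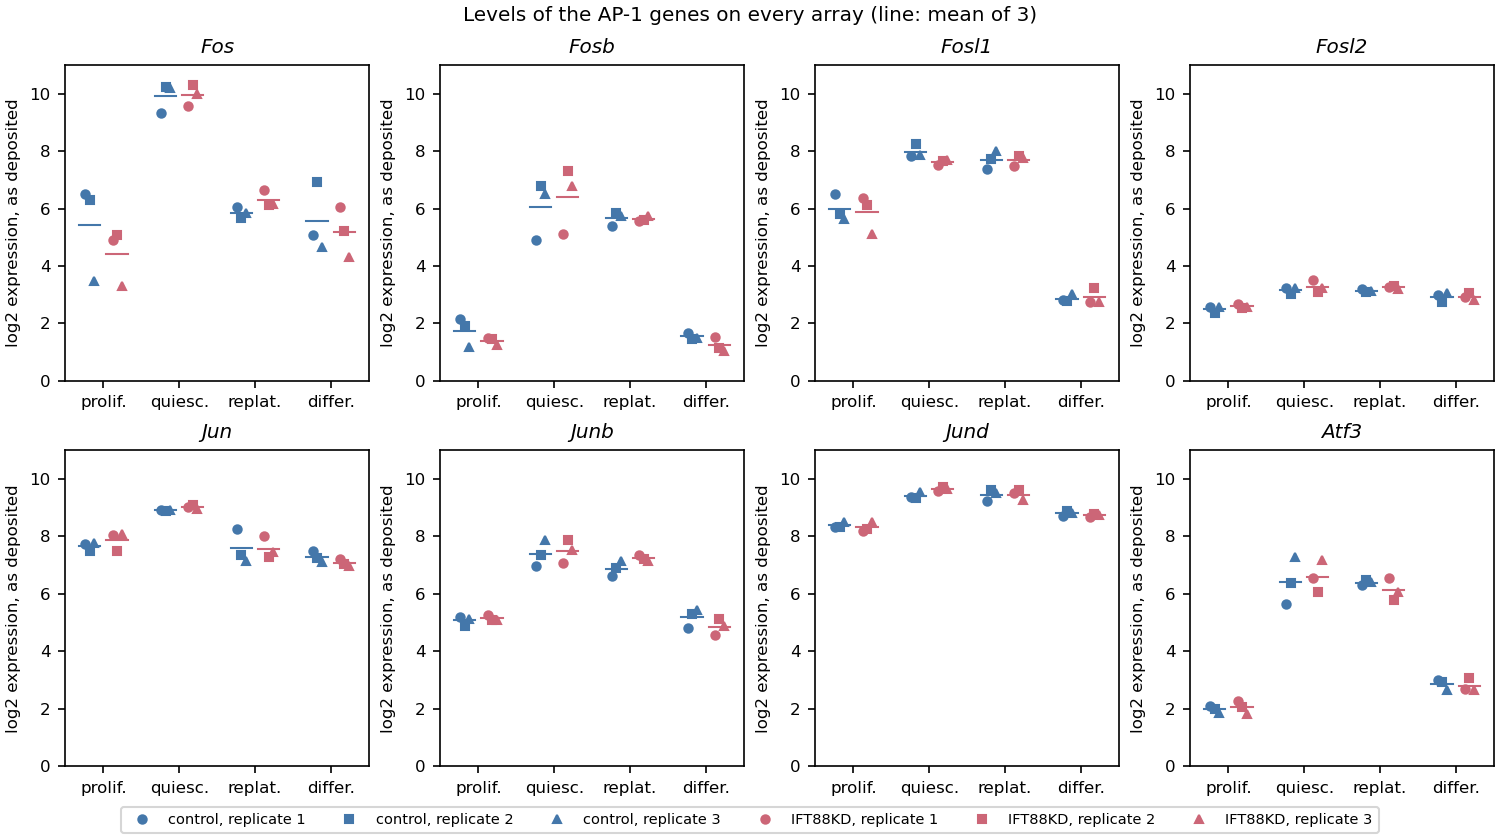
Log2 level, as deposited, of each AP-1 gene (vertical axis, 0 to 11) on all 24 arrays by culture state (horizontal axis), blue for control and red for IFT88KD; the point shape gives the replicate number and the line the mean of 3. Fos is highest in quiescent cells, with means of 9.92 and 9.97 and no overlap with other states, whereas Fosb, Fosl1, Fosl2, Junb, Jund and Atf3 stay high in replated cells and Fosl1 is lowest in differentiating cells.

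Atf3 read 2.10, 1.99 and 1.84 in control proliferating cells and 5.64, 6.36 and 7.28 in control quiescent cells. The difference was 4.45 in control and 4.55 in IFT88KD cells. The groups were far apart, and all 6 proliferating arrays lay under the 40th percentile of their array, so the size of this difference rests on a level near the bottom of the scale. Fosb behaved alike in this respect: it read 2.14, 1.91 and 1.17 in control proliferating cells and 4.91, 6.79 and 6.53 in control quiescent cells, with all 6 proliferating arrays under that percentile. Fosb differed by 4.33 in control and 5.01 in IFT88KD cells. Fosb entered the fit through its quiescent and replated arrays, and Atf3 through those and its differentiating arrays. Their differences from proliferating cells are therefore given as a description without a test. The quiescent arrays numbered 1 were the lowest for Fosb with both siRNAs, at 4.91 and 5.13.

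The Jun genes and the remaining Fos genes rose less. In control cells Junb rose by 2.32 (SE 0.22, adjusted p = 4.08e-09), Fosl1 by 2.00 (SE 0.25, adjusted p = 3.95e-07), Jun by 1.23 (SE 0.22, adjusted p = 3.85e-05), Jund by 1.04 (SE 0.11, adjusted p = 5.57e-08) and Fosl2 by 0.66 (SE 0.11, adjusted p = 1.61e-05). The same 5 genes rose by 2.34, 1.74, 1.14, 1.35 and 0.68 in IFT88KD cells. Second probe sets of Fosl1 and Jun rose as well, by 1.75 and 1.07 in control cells. That of Fosl1 lay under the 40th percentile on 2 of 3 control proliferating arrays. All 5 genes, Fos not counted, lay above the 40th percentile in both states and passed the threshold of an adjusted p of 0.05 with each siRNA. Of all genes 71.3% were called in control cells (41.9% higher and 29.5% lower) and 69.1% in IFT88KD cells (39.8% higher). Quiescent arrays lay wholly above proliferating ones for all 5 genes with each siRNA, and for 43.6% of all genes in control and 41.2% in IFT88KD cells. With Fos included, the median change of the 6 genes was 1.62 in control and 1.54 in IFT88KD cells, and that of all genes 0.14 and 0.11. Higher genes made up 58.7% of all calls in control cells, and 45.0% after each array was centred on its median; in IFT88KD cells these shares were 57.6% and 42.9%. The 5 genes stayed past the threshold in that direction under both scalings.

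Markers of other cell types moved between these states as well. In control cells the summed linear level of 12 macrophage markers went from 44.3 to 53.7 in proliferating to 300.6 to 302.9 in quiescent cells, of which Cd68, Csf1r and Cd14 were above the 40th percentile on all quiescent arrays and the other 9, Ptprc and Adgre1 among them, were not. The sum of 7 fibroblast markers measured went from 43.4 to 53.2 up to 499 to 532 (Pdgfra and Pi16 above that percentile), and that of 7 adipocyte markers from 47.2 to 68.5 up to 687 to 934 (Cebpa, Pparg and Lpl). In replated control cells these sums were 139 to 156, 153 to 165 and 326 to 398. The 6 bone and cartilage markers measured summed to 76.2 to 82.9 in control proliferating and 195 to 220 in control quiescent cells (Sp7 and Sox9 above that percentile), and the 8 endothelial markers stayed at 26.1 or less in every group. Their part in the AP-1 levels was not tested. In such bulk samples, fewer cells of a type and less RNA per cell cannot be told apart.

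**Figure D2:**
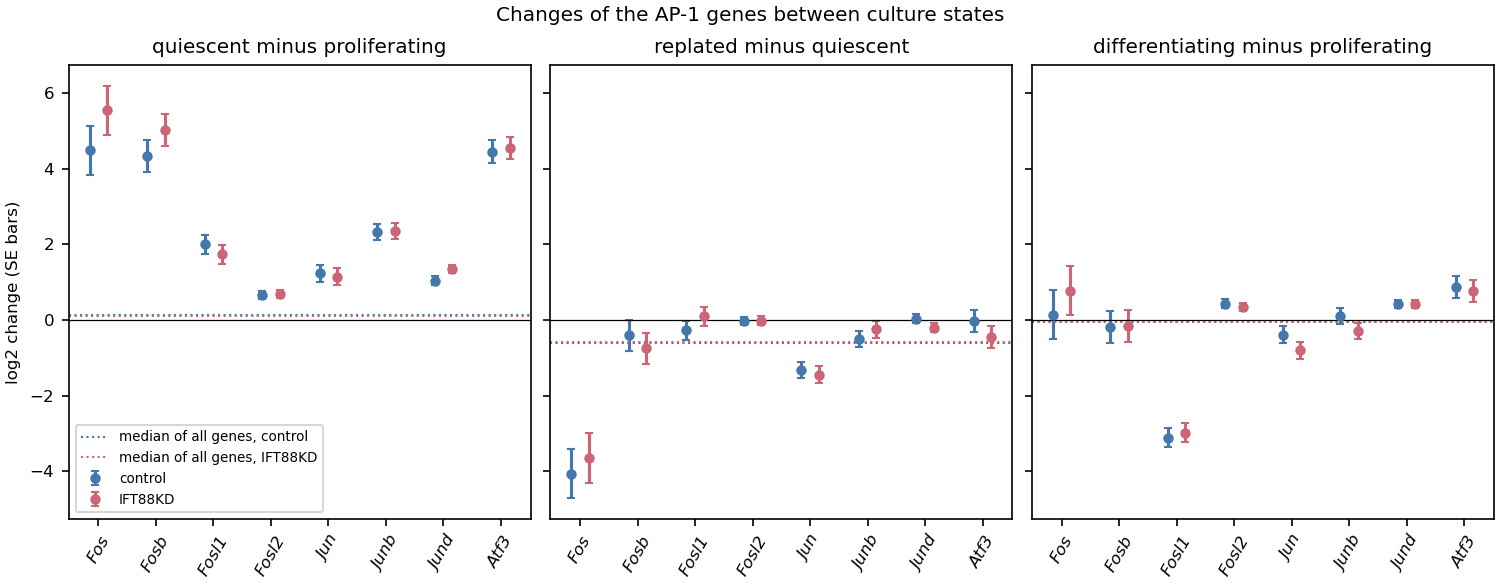
Log2 change of each AP-1 gene (vertical axis) between culture states for control (blue) and IFT88KD cells (red), with standard errors; dotted lines give the median change of all 8597 genes. All 8 genes lie above 0 from proliferating to quiescent cells, Fos and Jun lie furthest below 0 on replating, and Fosl1 lies near -3.12 and -2.98 in differentiating cells.

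After 2 h of replating Fos stood far below its quiescent level, with the most negative difference of the 8 genes. Fos read 9.35, 10.23 and 10.19 in control quiescent cells and 6.06, 5.68 and 5.85 in control replated cells, with means of 9.92 ± 0.49 (SD, n = 3) and 5.86 ± 0.19. The replated arrays lay below all quiescent ones and within the range of the proliferating ones. The fall of Fos on replating was known when these genes were chosen, so its difference of -4.06 is given as a description without a test. Of the 8597 genes, 3 had a more negative difference, and the median difference of all genes was -0.61. As a rank within the array, which does not depend on a common scale, Fos stood at a mean percentile of 97.9 in control quiescent, 76.4 in control replated and 68.2 in control proliferating cells. The proliferating mean includes the low array numbered 3, at 3.47 against a highest level of 6.52, which was above all replated arrays.

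With IFT88 siRNA, Fos read 6.67, 6.11 and 6.16 in replated cells, again below all quiescent arrays. Its difference, likewise a description, was -3.65 against a median of -0.59 for all genes, and 3 genes had a more negative one. The difference of -4.06 in control cells became -3.61 after quantile normalisation and -3.21 after centring each array on its median, and that of -3.65 became -3.25 and -2.80. Over all alternatives, left-out arrays included, the control difference ran from -4.35 to -3.21. These changes share the quiescent arrays with the comparison of quiescent and proliferating cells.

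**Figure D3:**
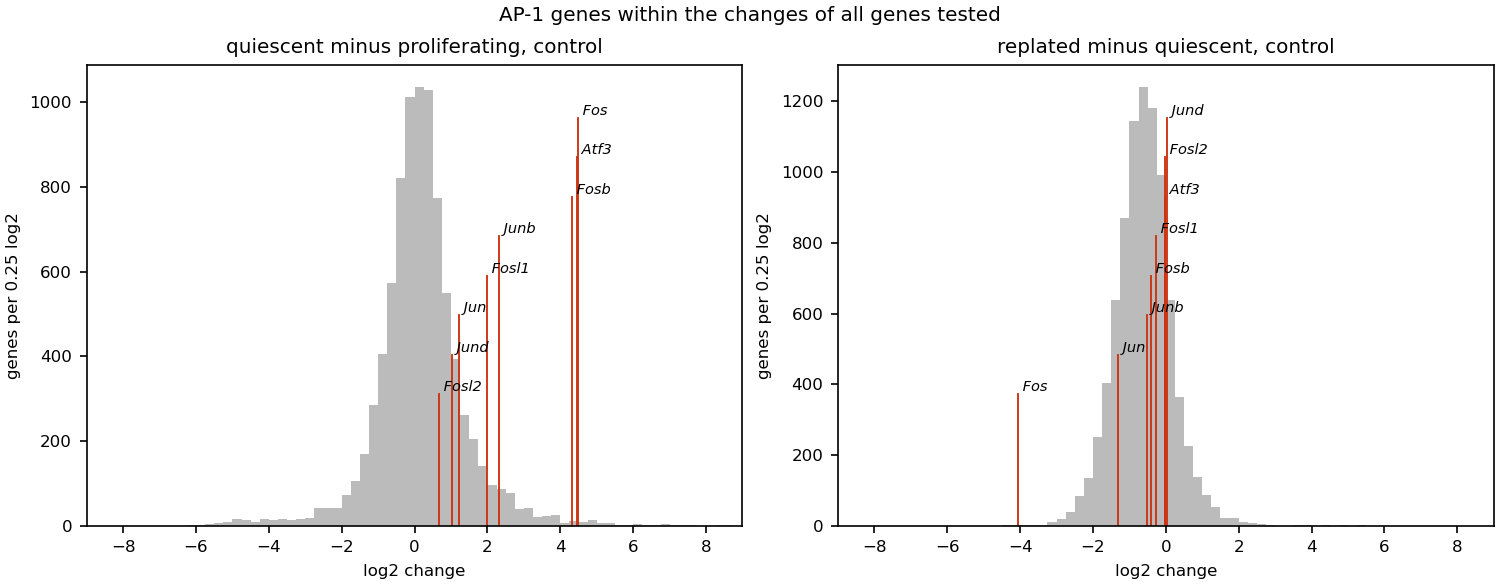
Number of genes (vertical axis, in bins of 0.25 log2) by log2 change (horizontal axis) for quiescent minus proliferating and replated minus quiescent control cells; red lines mark the AP-1 genes, and their height only spaces the names. Fos, Atf3 and Fosb lie in the far right tail on the left, at 4.49, 4.45 and 4.33, and on the right Fos alone of the 8 lies in the far left tail, at -4.06.

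Jun also stood lower after replating as deposited. It read 8.93, 8.88 and 8.91 on the control quiescent arrays and 8.27, 7.34 and 7.16 on the control replated ones. The groups did not overlap, and replicate 1 was the highest replated array. Jun changed by -1.32 (SE 0.22, adjusted p = 1.42e-05) in control and -1.45 (SE 0.22, adjusted p = 4.44e-06) in IFT88KD cells, and its second probe set by -1.24 and -1.25. After centring on the array medians the change was -0.46 (adjusted p = 0.065) in control and -0.59 (adjusted p = 0.0199) in IFT88KD cells. As a rank within the array, Jun stood at a mean percentile of 95.6 in control quiescent, 90.5 in control replated and 89.1 in control proliferating cells.

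Junb, whose product pairs with Fos proteins and often dampens Jun, overlapped between the states, at 6.95, 7.35 and 7.88 on the control quiescent and 6.61, 6.89 and 7.16 on the control replated arrays. Its difference was -0.51 (SE 0.22, adjusted p = 0.0378) in control cells as deposited and had the opposite sign, 0.35, after centring (adjusted p = 0.163). Without control quiescent replicate 2 or 3, or control replated replicate 1 or 2, the adjusted p was 0.0594, 0.273, 0.164 or 0.0704. The other members of the family did not pass the threshold in control cells: Fosb differed by -0.41, Fosl1 by -0.27, Fosl2 by -0.02, Jund by 0.03 and Atf3 by -0.04. Fosb, Fosl1, Fosl2 and Atf3 took the opposite sign, at 0.10, 0.07, 0.85 and 0.39 after quantile normalisation and at 0.45, 0.59, 0.83 and 0.82 after centring. Without the low control quiescent replicate 1, Fosb changed by -0.99 (adjusted p = 0.0263), and without IFT88KD quiescent replicate 1 by -1.40 in IFT88KD cells (adjusted p = 0.00178), where it differed by -0.75 with all arrays (adjusted p = 0.108; -0.89 and 0.044 with array weights). In IFT88KD cells Jund passed without replated replicate 2 (-0.28, adjusted p = 0.0468) and Atf3 without quiescent replicate 2 (-0.72, adjusted p = 0.0426).

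Counted without Fos, 2 of 7 genes (Jun and Junb) were called lower and none higher on replating in control cells, where 76.5% of all genes were called, 66.9% lower and 9.62% higher. In IFT88KD cells 1 of the 7 (Jun) was called lower, where 76.9% of all genes were called, 66.8% lower and 10.1% higher. The share of higher genes among all calls was 12.6% in control cells as deposited, 42.3% after quantile normalisation and 68.9% after centring, and 13.1%, 43.6% and 70.0% in IFT88KD cells. After centring, Fosl1 (0.59), Fosl2 (0.83), Jund (0.89) and Atf3 (0.82) were called higher in control cells and none of the 7 lower; in IFT88KD cells Fosl1 (0.95), Fosl2 (0.84), Junb (0.61) and Jund (0.65) were called higher and Jun lower. Fosl2 was called higher after quantile normalisation too, by 0.85 in control and 0.87 in IFT88KD cells. Which of these scales holds for total RNA per cell was not tested, and under all 3 of them the control difference of Fos was the most negative of the 8.

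**Figure D4:**
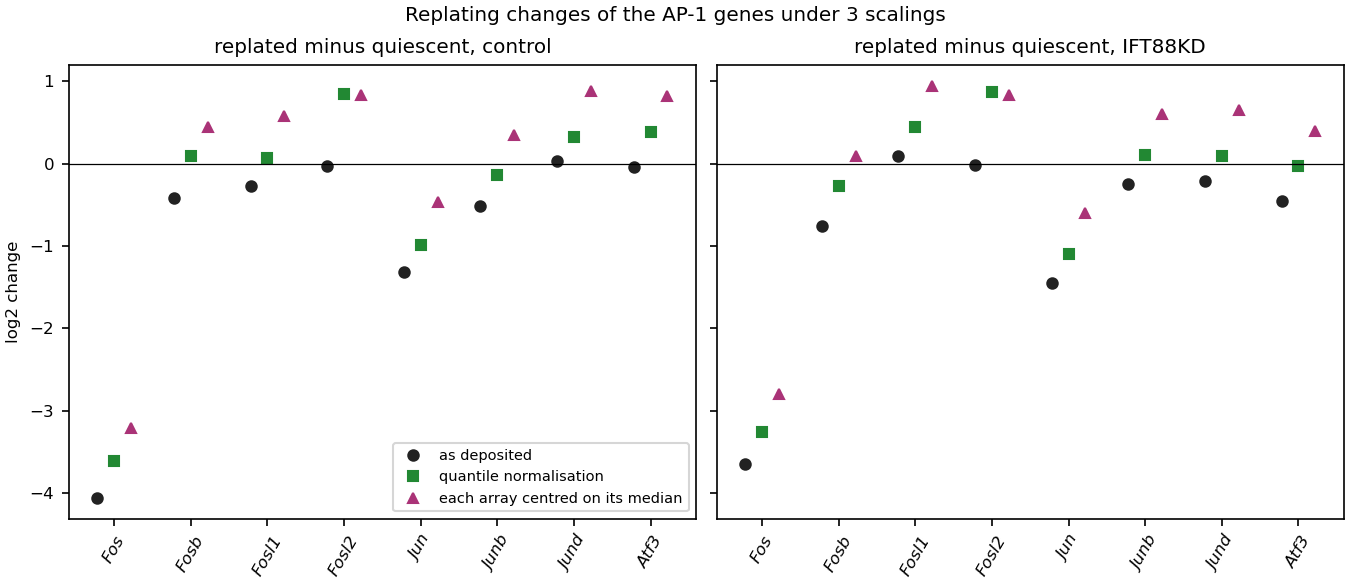
Log2 change of each AP-1 gene from quiescent to replated cells (vertical axis) in control (left) and IFT88KD cells (right), as deposited (circles), after quantile normalisation (squares) and after centring each array on its median (triangles). Fos, at -4.06, -3.61 and -3.21 in control cells, and Jun lie below 0 under all 3 scalings, whereas Fosl2 lies near 0 as deposited and at 0.85 and 0.83 under the others.

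Set against proliferating cells, replated control cells still held most of the family at a raised level. Atf3 read 6.30, 6.48 and 6.40 and Fosb 5.40, 5.86 and 5.73 on the control replated arrays, clear of all proliferating ones, differences of 4.42 and 3.92 given without a test. Of the other 6 genes 4 were higher: Junb by 1.81 (SE 0.22, adjusted p = 1.31e-07), Fosl1 by 1.73 (SE 0.25, adjusted p = 2.21e-06), Jund by 1.07 (SE 0.11, adjusted p = 2.29e-08) and Fosl2 by 0.64 (SE 0.11, adjusted p = 1.91e-05). Fos differed by 0.43 (95% interval -0.92 to 1.78, adjusted p = 0.557) and Jun by -0.09 (-0.55 to 0.37, adjusted p = 0.72). Jun was called higher after centring (0.55, adjusted p = 0.0256) and lower without control replated replicate 1 (-0.43, adjusted p = 0.042). Of all genes 78.4% were called, 23.5% higher and 54.9% lower, and the median of all genes was -0.43 against 0.85 for these 6. The share of higher genes among all calls was 30.0% as deposited, 49.9% after quantile normalisation and 60.6% after centring, and the 4 genes were called higher under each.

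In differentiating cells Fosl1, a gene known for its role in proliferating and migrating cells, stood far below its proliferating level. It read 6.51, 5.81 and 5.63 on the control proliferating arrays and 2.81, 2.78 and 3.02 on the control differentiating ones. The groups lay wide apart, and the IFT88KD arrays did likewise, at 6.38, 6.14 and 5.13 against 2.73, 3.24 and 2.74. Fosl1 changed by -3.12 (SE 0.25, adjusted p = 1.75e-09) in control and -2.98 (SE 0.25, adjusted p = 4.30e-09) in IFT88KD cells, where the median of all genes was -0.06 and -0.05. In control cells 7 genes had a more negative change. The second Fosl1 probe set changed by -1.11 (adjusted p = 0.00202) and -1.14 (adjusted p = 0.00181), so the size depends on the probe set. It lay under the 40th percentile on all differentiating arrays and on 2 of 3 proliferating arrays with each siRNA, near the bottom of the scale in both states.

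The other changes on differentiation were small. In control cells Fosl2 rose by 0.43 (SE 0.11, adjusted p = 0.00214) and Jund by 0.42 (SE 0.11, adjusted p = 0.00364). Atf3 differed by 0.88, given without a test since all 6 proliferating arrays lay under the 40th percentile. Without control differentiating replicate 1 the difference of Atf3 was 0.80. In IFT88KD cells Jund rose by 0.42 and Fosl2 by 0.34, and Jun fell by 0.80 (SE 0.22, adjusted p = 0.0045). Atf3 differed there by 0.76, likewise given without a test. Fosl2 was not called in IFT88KD cells after quantile normalisation (0.19), after centring (0.23) or without IFT88KD differentiating replicate 2 (0.27). The difference of Atf3 in IFT88KD cells was 0.59, 0.65 and 0.62 under these settings. Without IFT88KD proliferating replicate 2 or 3, or IFT88KD differentiating replicate 1, the difference of Atf3 was 0.77, 0.64 or 0.82. Jun differed by -0.39 (adjusted p = 0.14, or 0.04 in a fit of the compared groups only) in control cells, and its second probe set by -0.54 (adjusted p = 0.0533) in IFT88KD cells. Fos varied most among the arrays here, at 5.09, 6.95 and 4.67 in control and 6.07, 5.21 and 4.31 in IFT88KD cells, and differed from proliferating cells by 0.13 (95% interval -1.22 to 1.49) and 0.77 (-0.58 to 2.12). Fosb stayed under the 40th percentile on all 6 differentiating arrays. Of the 6 genes above that percentile in both states, 2 were higher and 1 lower in control and 2 higher and 2 lower in IFT88KD cells. This stands against 54.8% of all genes called in control cells (24.5% higher and 30.3% lower) and 50.7% in IFT88KD cells (22.6% higher and 28% lower). Higher genes were 44.7% of all calls in IFT88KD cells, and 32.5% after centring.

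The order of the 8 groups followed from this. For Fos both quiescent groups came first with overlapping arrays, then IFT88KD replated cells at 6.31 ± 0.31 (SD, n = 3) and control replated cells at 5.86, and the remaining groups, from 5.57 ± 1.21 in control differentiating to 4.43 ± 0.98 in IFT88KD proliferating cells, each overlapped the next. For Fosb, Fosl1, Fosl2, Junb and Atf3 the quiescent and replated groups of both siRNAs formed the 4 highest places. Neighbours in those places overlapped, and a gap followed to the fifth place. Jund had the same 4 groups on top, from 9.66 ± 0.07 in IFT88KD quiescent to 9.42 ± 0.10 in control quiescent cells. Jun ran from 9.02 ± 0.08 and 8.91 ± 0.02 in quiescent cells to 7.29 ± 0.19 and 7.08 ± 0.13 in differentiating cells, with overlapping neighbours from the third place on. Fosl2 stayed between 2.50 ± 0.12 in control proliferating and 3.28 ± 0.22 in IFT88KD quiescent cells.

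IFT88 siRNA had no effect past the threshold on any of the 8 genes in any state. In differentiating cells Ift88 itself differed by only -0.01 between the siRNAs, so the result there is not a test of lowered Ift88. By limma the count was 0 of 8 in each state. At an unadjusted p of 0.05 it was 0 in proliferating, 1 in quiescent (Jund), 0 in replated and 0 in differentiating cells. With both siRNAs, Fosb in proliferating and differentiating cells and Atf3 in proliferating cells lay near the bottom of the scale on all arrays. An siRNA effect on these genes could hardly show there, so the counts are not a test of it. Of all genes 0.361% were called in proliferating (1.93% with replicate numbers as blocks), 5.2% in quiescent (13.6% with blocks), 2.41% in replated (11.1% with blocks) and 0.14% in differentiating cells (1.04% with blocks). The lowest adjusted p was 0.3, for Jund in quiescent cells, and with blocks 0.102, for Fosb there.

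The largest difference was that of Fos in proliferating cells, -1.01 (SE 0.65, adjusted p = 0.975; 0.194 with blocks). Its 95% interval ran from -2.36 to 0.35. By replicate number the IFT88KD array differed from its control partner by -1.62, -1.23 and -0.17. Jund in quiescent cells read 9.39, 9.34 and 9.54 with control and 9.59, 9.73 and 9.67 with IFT88 siRNA, a difference of 0.24 (interval 0.00 to 0.48). Fosl1 there read 7.82, 8.26 and 7.88 with control and 7.51, 7.67 and 7.68 with IFT88 siRNA, a difference of -0.37 (-0.89 to 0.16, adjusted p = 0.538). The arrays of the 2 siRNAs did not overlap for Jun, Jund and Fosl1 in quiescent cells, where that held for 24.9% of all genes (11.2% higher and 13.7% lower), or for Fos and Fosl2 in replated cells, both higher, where it held for 17.1% (9.41% higher). It held for none of the 8 in proliferating and differentiating cells, and for 9.61% and 10.8% of all genes there. The summed macrophage markers were lower with IFT88 siRNA in quiescent cells, at 118 to 131 against 300.6 to 302.9, and in replated cells, at 70.7 to 81.3 against 139 to 156, and so were the fibroblast markers, at 378 to 437 against 499 to 532 and at 91.7 to 147 against 153 to 165. The summed muscle markers were higher with IFT88 siRNA, at 3691 to 4967 against 2495 to 3586 in quiescent and 2223 to 2855 against 1516 to 1953 in replated cells. In proliferating cells the adipocyte sum was 70.3 to 89.0 with IFT88 siRNA against 47.2 to 68.5. The part of these markers in the AP-1 differences was not tested. For Fosl2 every interval lay between -0.23 and 0.35, whereas those of Fos reached from -2.36 to 1.81.

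The change between states did not differ by siRNA past the threshold either. For quiescent against proliferating cells the difference of effects ranged over the 8 genes from -0.26 to 1.05, the highest being Fos (SE 0.92, adjusted p = 0.879), and 1.24% of all genes were called (3.84% with blocks). For replated against quiescent cells it ranged from -0.42 to 0.41, with 0.0582% of all genes called (0.14% with blocks), and for differentiating against proliferating cells from -0.41 to 0.63, with 0.0465% called (0.512% with blocks). In each, 0 of 8 genes passed by limma, and 0 had an unadjusted p under 0.05. Against proliferating cells, the values of Fosb and Atf3 rest partly on levels near the bottom of the scale. The counts are therefore not a test of either gene in those comparisons.

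**Figure D5:**
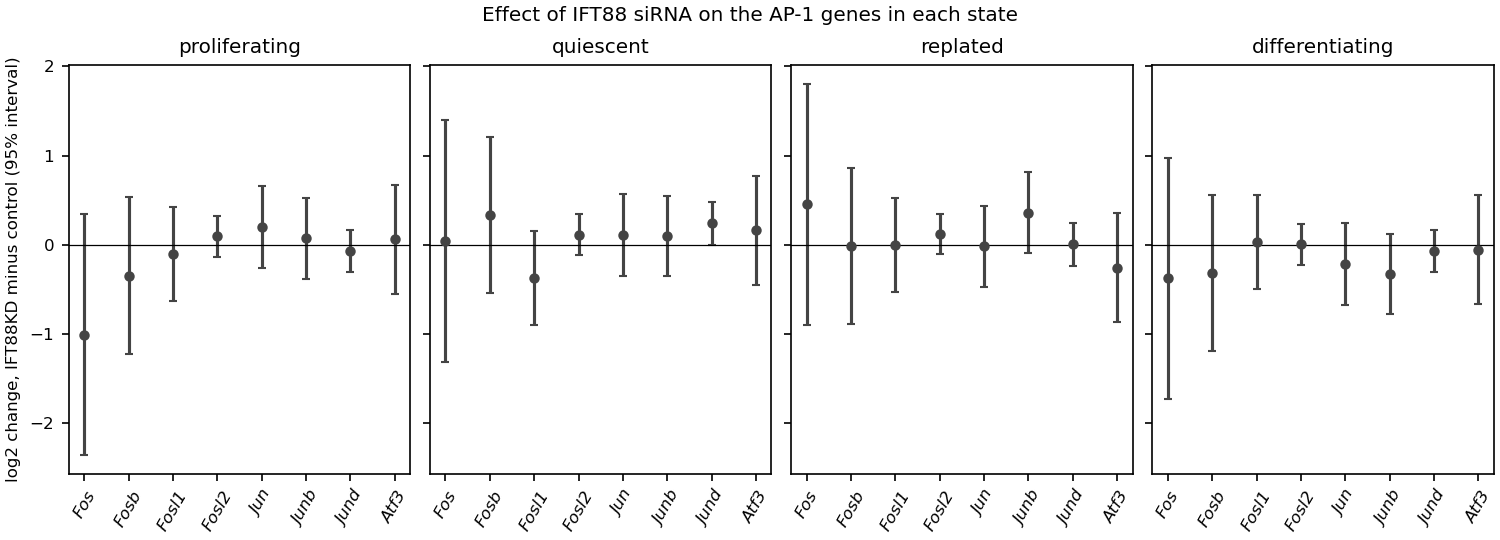
Log2 difference of each AP-1 gene between IFT88KD and control cells (vertical axis) in each culture state, with 95% intervals from the limma fit over 24 arrays. Fosb in proliferating and differentiating cells and Atf3 in proliferating cells lay near the bottom of the scale. Intervals of 31 of the 32 differences include 0; that of Jund in quiescent cells, 0.00 to 0.48, lies just above it, and Fos has the widest ones.

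Other genes of the pathway were followed as 4 lists, and genes such as Dusp1, Srf and Jdp2 stand in more than 1 of them. Over all genes tested in control cells, 41.9% were higher and 29.5% lower in quiescent than in proliferating cells, with a median of 0.14, and on replating 9.62% were higher and 66.9% lower, with a median of -0.61. Replated cells had 23.5% higher and 54.9% lower than proliferating cells (median -0.43), and differentiating cells 24.5% higher and 30.3% lower (median -0.06). These shares hold for values as deposited. On replating in control cells the median of all genes was -0.10 after quantile normalisation and 0.25 after centring. List counts under those scalings are therefore not to be set against the shares as deposited. No test of a list was made.

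Among related leucine zipper factors that pair with or resemble AP-1, 22 of 29 listed genes were tested. In control quiescent cells 15 were higher and 3 lower than in proliferating cells, with a median of 0.67. The largest changes were those of Maff (3.39, SE 0.23), a small Maf protein, Nfil3 (3.22, SE 0.17), a repressor of circadian and immune genes, Cebpd (3.06, SE 0.20) and Cebpa (2.46, SE 0.25), both C/EBP factors. On replating 9 were higher and 7 lower as deposited, with a median of 0.19. After quantile normalisation 13 were higher and 1 lower, with a median of 0.55 against -0.10 for all genes. Mafk rose by 1.90 (SE 0.11) and Cebpg by 1.12 (SE 0.19), and Cebpa changed by -0.89 (SE 0.25; -0.49 after quantile normalisation and -0.04 after centring, not called in either). With IFT88 siRNA, Nfe2l1, a factor of the proteasome and stress response, was lower in quiescent cells by -0.56 (SE 0.13, adjusted p = 0.0142), and Cebpd higher in replated cells by 0.83 (SE 0.20, adjusted p = 0.029). With blocks the calls in replated cells were 4 higher and 3 lower of 22, where 11.1% of all genes were called.

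Of 36 genes listed together as other immediate early and related response genes, 35 were tested. In control cells 29 were higher and 2 lower in quiescent than in proliferating cells, with a median of 1.28. Txnip, a thioredoxin-binding protein, rose by 4.86 (SE 0.20), the nuclear receptor Nr4a1 by 4.58 (SE 0.24), the mRNA-destabilising protein Zfp36 by 3.94 (SE 0.18) and the small GTPase Gem by 3.88 (SE 0.26). On replating 14 were higher and 13 lower, with a median of 0.12 against -0.61 for all genes. Ccn2, a matricellular growth factor, rose by 5.37 (SE 0.34), Arc by 2.59 (SE 0.16) and Gadd45g by 2.35 (SE 0.16), whereas Txnip changed by -4.26 (SE 0.20). These counts were 17 and 8 after quantile normalisation (median 0.47 against -0.10 for all genes). After centring they were 23 and 5 (median 0.97 against 0.25). Against proliferating cells, 30 of the 35 were higher in control replated cells and 1 lower, Nr4a1 by 4.71 (SE 0.24) and Ptgs2, the inducible prostaglandin synthase, by 3.62 (SE 0.33). On differentiation 12 were higher and 6 lower, Zfp36l1 by 2.35 (SE 0.29) and Nr4a2 by -2.00 (SE 0.21). By limma 0 of 35 were called between the siRNAs in any state; with blocks 3 were called in quiescent cells (13.6% of all genes), 2 in replated cells (11.1%) and 1 in each of the other states (1.93% in proliferating and 1.04% in differentiating cells).

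Among genes known as AP-1 targets 29 of 33 were tested. In control quiescent cells 20 were higher and 5 lower than in proliferating cells, with a median of 1.24 against 0.14 for all genes, led by the proteoglycan Dcn (7.65, SE 0.32), the chemokine Ccl2 (3.83, SE 0.54), the cytokine Il6 (3.71, SE 0.56) and the EGF receptor ligand Ereg (3.66, SE 0.36). On replating 14 were higher and 3 lower as deposited (median 0.40). After centring 24 were higher and 0 lower, with a median of 1.25 against 0.25 for all genes. Il6 rose by a further 4.34 (SE 0.56), the EGF receptor ligand Hbegf by 3.69 (SE 0.25), the fibronectin receptor chain Itga5 by 2.12 (SE 0.29) and the protease urokinase, Plau, by 1.70 (SE 0.32). Differentiating control cells had 5 higher and 12 lower, with a median of -0.40 against -0.06 for all genes. Nqo1, a quinone reductase, changed there by -3.63 (SE 0.18), Ccnd1, cyclin D1, by -2.67 (SE 0.25) and Ereg by -2.24 (SE 0.36). With IFT88 siRNA, Ccnd1 was higher by 1.26 in quiescent (SE 0.25, adjusted p = 0.00274) and by 1.26 in replated cells (SE 0.25, adjusted p = 0.00554), and the metalloproteinase Mmp3 by 1.09 in quiescent cells (SE 0.20, adjusted p = 0.00149). With blocks 6 were higher and 2 lower in quiescent and 3 higher and 1 lower in replated cells, where 13.6% and 11.1% of all genes were called.

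Of 38 listed kinases and factors upstream of AP-1, 26 were tested. In control quiescent cells 8 were higher and 8 lower, with a median of 0.14, the same as that of all genes. After centring these counts were 6 and 12, with a median of -0.08 for the list and for all genes. Dusp1, a phosphatase that switches off MAP kinases, rose by 2.94 (SE 0.25) and changed by -1.83 (SE 0.25) on replating. Map3k1, a kinase above JNK, changed by 2.20 (SE 0.15) and then -2.24 (SE 0.15). The p38 kinase gene Mapk11 changed by -1.85 (SE 0.26) and Jdp2, a repressor that pairs with Jun, by -1.72 (SE 0.14) in quiescence. On replating 6 were higher and 13 lower as deposited (median -0.36 against -0.61 for all genes). After centring 16 were higher and 3 lower (median 0.50 against 0.25 for all genes). Map2k3, a kinase above p38, rose by 2.09 as deposited (SE 0.13). On differentiation 4 were higher and 7 lower, with a median of -0.01. The Ras gene Nras was lower by -0.52 with IFT88 siRNA in quiescent cells (SE 0.11, adjusted p = 0.00534); with blocks 1 was higher and 3 lower there, 2 lower in proliferating, and 2 higher and 1 lower in replated cells, where 13.6%, 1.93% and 11.1% of all genes were called.

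The genes whose pattern over the 24 arrays was most like each member, after each array was centred on its median, were named as a description. These arrays share their states and scale, so high correlations follow from large differences between states. For Fos they were Rab20, a small GTPase (r = 0.927), Epdr1 (0.924), Egln3, an oxygen-sensing prolyl hydroxylase (0.923), Rarb, a retinoic acid receptor (0.914), and Adm, the peptide hormone adrenomedullin (0.912). In control cells each of these genes was highest in the quiescent group: Adm read 5.36 ± 0.35 (SD, n = 3) in control quiescent cells against 1.01 ± 0.08 in proliferating, 1.47 ± 0.09 in replated and 1.38 ± 0.11 in differentiating controls. With values as deposited Epdr1 came first and Rarb was in place 46. For Fosb the closest were the chemokine Cxcl1 (0.981), the glutamate receptor Gria1 (0.980) and Car9, a carbonic anhydrase (0.979). Cxcl1 read 10.77 ± 0.44 in control quiescent, 10.24 ± 0.53 in control replated and 2.46 ± 0.17 in control proliferating cells, so unlike Adm it stayed up after replating.

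Junb came closest to Gria1 (0.982), the immediate early gene Ier3 (0.981) and Tcim (0.978), and Atf3 to Ppp1r15a, a phosphatase subunit of the stress response (0.984), the MAP kinase phosphatase Dusp10 (0.983) and the linker histone H1f2 (0.983). Jund was closest to Arid5b (0.983), the laminin chain Lamc1 (0.976) and the ribonuclease Zc3h12a (0.976), and Fosl2 to Glis1 (0.971), Tnip1 (0.966) and Atp9b (0.965). With values as deposited Zc3h12a fell to place 367 for Jund and Glis1 to place 227 for Fosl2. Fosl1 was closest to Selp, P-selectin (0.989), Foxc1 (0.988) and Tspan4 (0.988). Selp read 4.62 ± 0.71 in control proliferating, 7.46 ± 0.16 in control quiescent and 1.73 ± 0.01 in control differentiating cells. Jun was closest to the glycolytic enzyme gene Ldha (0.943), the prostaglandin receptor Ptger4 (0.933) and the glycolytic Pgam1 (0.924). Among control groups Ldha was highest in quiescent cells, at 11.01 ± 0.03, followed by 10.01 ± 0.13 in proliferating, 9.76 ± 0.26 in replated and 9.10 ± 0.15 in differentiating cells.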

How the data were processed

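Expression in 24 samples was read from 1 deposited table of log2 values for 22690 probe sets, with 0 missing values and 0 columns of other samples. The authors made these log2 values with GCOS, Affymetrix Expression Console and affy, per the submitters' processing notes; versions, the normalisation and whether the 4 states were normalised together are not given in the sources used here. No intensities were analysed here, so the number of arrays limits the precision.

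Of the probe sets, 64 were controls, 20380 had 1 gene, 691 several and 1555 none by the platform annotation, and 29 carried an ID that the gene table used for names lacks. One probe set stood for each gene, that of highest mean, x_at sets only where the gene had no other. A gene was tested if 3 or more arrays had it over their own 40th percentile; 8597 genes passed, with all 8 AP-1 genes among them. Fosb and Atf3 passed through the states in which they were high, so their differences from proliferating cells are given without a test. Fos is likewise given without a test on replating and in quiescent against proliferating cells. A linear model with 1 coefficient for each of the 8 groups was fitted with limma 3.58.1 in R 4.3.3 (eBayes), 14 contrasts were taken, with Benjamini-Hochberg adjustment across the genes of each contrast and a threshold of 0.05. The program was tested on simulated data. A percentile is a rank among all probe sets of the array. Plots were drawn with Python 3.11.15 and matplotlib 3.10.9.

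The genes and lists were chosen with earlier results of these data known. The rule for naming took all 8 genes, the 3 most like genes by Pearson r (5 for Fos), and at most 4 genes with the largest change past the threshold from each list and contrast. Replicate numbers were checked for pairing: IFT88KD and control arrays of equal number deviated together in every state (r over genes 0.252 to 0.708; unequal numbers 0.134 at most), so blocks are given beside the siRNA results. Equal numbers also deviated together between replated and quiescent arrays of either siRNA (0.155 to 0.421) and between control differentiating and proliferating arrays (0.164 to 0.284), where blocks changed no AP-1 call, but not in every pair of the other state comparisons. Alternatives tried were other scalings (quantile, or array medians set equal), a stricter filter (60th percentile) or none, averaging probe sets of a gene, the second probe set of Jun and Fosl1, trend and robust estimation, array weights, the compared groups only, replicate blocks and leaving out each array. Protein sequences were not used here.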

Additional observations from a re-analysis of the deposited data

Results flagged for a closer look

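In 4 of the 8 AP-1 genes all 3 IFT88KD arrays lay on one side of the control array of equal number in 1 state and on the other side in a second state. Of all 8597 genes 1663 (19.3%) did so between any 2 of the 4 states. The difference of effects was then tested in contrasts chosen after seeing the data, with p-values by limma adjusted over 8597 genes, and none passed the threshold. For Fos the pairs differed by -1.62, -1.23 and -0.17 in proliferating and by 0.61, 0.44 and 0.32 in replated cells, and the effect in replated minus that in proliferating cells was 1.46 (adjusted p = 0.893, 0.183 with blocks). Between these states 4.36% of all genes had such opposite pairs, and 0.361% were called in that contrast. For differentiating minus quiescent cells the difference was -0.65 for Fosb (adjusted p = 0.874, 0.0546 with blocks), -0.32 for Jun (0.875, 0.233 with blocks) and -0.31 for Jund (0.607, 0.218 with blocks), where 7.82% of all genes had such opposite pairs and 1.13% were called. Each was higher in 3 of 3 quiescent pairs and lower in 3 of 3 differentiating pairs. Fosb, however, lay under the 40th percentile on all differentiating arrays, with means of 1.55 in control and 1.23 in IFT88KD cells. Its lower pairs there, and so part of its difference of -0.65, rest on levels near the bottom of the scale.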

How the results depend on the processing

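With 3 arrays a group, and no raw signal or detection call analysed here, levels under the 40th percentile have no checked background, and small siRNA effects could not be told from 0. The calls of the AP-1 genes tested in quiescent against proliferating cells held with both siRNAs under every alternative (except that the filter at the 60th percentile left Fosl2 out). They also held without the proliferating arrays numbered 3. The counts of 0 for the siRNA effect and for the differences of effects held under every alternative. These counts include Fosb and Atf3 in states where they lay near the bottom of the scale. Replicate blocks changed no call of an AP-1 gene: all genes tested in quiescent cells, 2 of 7 on replating in control, 1 of 7 in IFT88KD cells and 0 of 8 for each siRNA effect.

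The cause of the following moves was not tested. On replating in control cells the count of 2 became 4 after centring, all higher, and 1 with the compared groups only; leaving out arrays gave 1 to 3. In IFT88KD cells the count of 1 became 2 after quantile normalisation and with array weights and 5 after centring, and leaving out arrays gave 1 to 2. On differentiation in IFT88KD cells 2 genes were called higher and 2 lower, Atf3 not counted. These became 1 higher and 2 lower after quantile normalisation, after centring and without IFT88KD differentiating replicate 2. Centring turned the sign on replating for Fosb (0.45), Fosl1 (0.59), Fosl2 (0.83), Junb (0.35) and Atf3 (0.82) in control cells, for Fosb (0.10), Fosl2 (0.84), Junb (0.61), Jund (0.65) and Atf3 (0.40) in IFT88KD cells, and for Jun in replated minus proliferating control cells (0.55). Quantile normalisation turned it for Fosb (0.10), Fosl1 (0.07), Fosl2 (0.85) and Atf3 (0.39) in control and Fosl2 (0.87), Junb (0.10) and Jund (0.10) in IFT88KD cells on replating, and for Jun in replated minus proliferating control cells (0.25).

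Over all genes, the calls between siRNAs (31, 447, 207 and 12 by state) became 231, 811, 762 and 28 with array weights, 166, 1173, 955 and 89 with replicate blocks, and 0, 402, 80 and 0 with the compared groups only. The 12 became 5 with the filter at the 60th percentile and 8 with no filter. Leaving out single arrays gave 20 to 35, 275 to 344, 111 to 272 and 0 to 12. The 107 differences of effects from proliferating to quiescent cells became 285 with array weights and 330 with blocks; the other counts of 5 and 4 ran from 0 to 13 and 0 to 44.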
